A study of Apostichopus japonicus with 12 samples.

Results

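The 100 features described here are those whose abundance differed most between replicate libraries of the same treatment in respiratory trees of Apostichopus japonicus, a sea cucumber. They were chosen by measured values. A feature had to reach 0.5 FPKM (fragments scaled to feature length and library size) in all 12 libraries and a mean of 10 FPKM, which 10920 of the 59494 listed features did. These were ranked by the variance of log2(FPKM + 0.5) within each treatment, averaged over the 4 treatments, and the first 100 were kept. The treatments were thermal stress (26 °C), hypoxic stress (2 mg/L, read here as dissolved oxygen), both stresses together at the same settings, and a normal control. Each had 3 libraries of ribosome-depleted total RNA. What temperature and oxygen the controls had, the oxygen level of the thermal group, the temperature of the hypoxic group, the exposure time and the animals' age are not given in any source used here. Nor do the labels say whether the 3 libraries of a treatment came from separate animals, so every p-value below measures only the spread between libraries, which may be technical.

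The respiratory tree is a hollow, branched outgrowth of the cloaca that a sea cucumber fills with sea water by muscular pumping. It takes up oxygen across a thin wall and lies in the coelomic fluid, which carries free immune cells. Spread between replicates is also the error term of every comparison between treatments: a feature whose replicates differ widely needs a larger treatment difference to pass a test than one whose replicates are close.

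Of the 100 features, 63 carried AJAP identifiers and 37 carried MSTRG identifiers, the prefix that the assembler StringTie gives by default to loci it builds from reads. Among all features that could be ranked, 80.5% were AJAP and 19.5% MSTRG. Looked up in RefSeq's genes of assembly ASM3797524v1, 0 of the identifiers matched, so no gene name, role, sequence or tissue marker is given for any of them. Feature lengths could be read from the deposited values. The 100 features had a median length of 666 bases (quartiles 477 and 1031), against 1056 bases (quartiles 624 and 1797) for all ranked features. Within the identifier classes, the medians were 648 bases against 990 for AJAP, whose lengths are mostly multiples of 3 (92.2%) and so are close to coding lengths, and 700 bases against 1703 for MSTRG (32.8% multiples of 3). Shorter features hold fewer reads at the same FPKM, and the part of length in the ranking was not tested.

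The libraries held between 20384461 and 28424598 recovered reads, and the 100 features took between 0.335% of them (hypoxic library 3) and 0.852% (thermal library 2). Their mean level over the 12 libraries ran from 10.1 to 344 FPKM with a median of 31.4, against a median of 23.6 for all ranked features. A mean of at least 100 FPKM was reached by 17 of the 100, against 10.1% of ranked features, and a mean under 20 FPKM was held by 32 of the 100, against 42.3%. The lowest library of a member had a median of 1.1 FPKM and the highest a median of 104 FPKM. These are levels in whole tissue, where fewer cells of a type and less RNA per cell cannot be told apart.

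The SD between replicates, pooled over the 4 treatments on the log2 scale, ran from 1.6 to 3.22 over the members with a median of 1.81. For all ranked features the median was 0.39, which is a 1.31-fold spread. Over all 12 libraries the highest value was between 20.8 and 1300 times the lowest, with a median of 85, against a median of 2.98 for ranked features. For 41 of the 100 this ratio was at least 100. These values chose the members and are a description only.

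**Figure D1:**
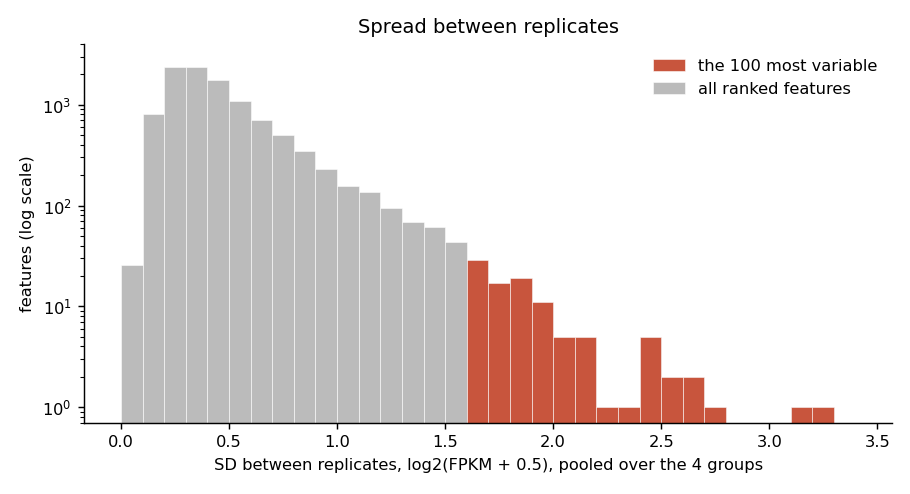
Number of features (log scale) by SD between replicates on the log2(FPKM + 0.5) scale, pooled over the 4 treatments, for the 100 most variable features (red) and all 10920 ranked features (grey). The members form the thin upper end of a continuous distribution, from 1.6 to 3.22, and no empty stretch parts them from the rest.

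The distribution has no break at rank 100. Just inside it stood MSTRG.55773, AJAP24480 and MSTRG.82549, with pooled SDs of 1.62, 1.61 and 1.6. Just outside stood AJAP10721, MSTRG.2467 and AJAP23896, all at 1.6.

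The most variable feature of all was MSTRG.68908, with a pooled SD of 3.22. It had 309, 1.79 and 1.73 FPKM in the thermal libraries, 64.8, 46.6 and 4.3 FPKM in the hypoxic libraries, 5.19, 8.47 and 1.34 FPKM under both stresses, and 2.19, 1.43 and 425 FPKM in the control libraries. Thermal library 1 and control library 3 were therefore alike and far above their own replicates, while hypoxic libraries 1 and 2 were intermediate.

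AJAP00351, next in rank, showed the reverse shape. It had 145, 1.12 and 117 FPKM in the thermal libraries, 147, 76.2 and 2.1 FPKM in the hypoxic libraries, 2.81, 296 and 114 FPKM under both stresses, and 67.0, 5.02 and 128 FPKM in the control libraries. One library of each treatment was low, at no more than 5.02 FPKM, and the other 8 libraries were at 67.0 FPKM or above. The low library had a different replicate number in hypoxic samples (3) and in samples under both stresses (1), and number 2 in thermal and in control samples.

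MSTRG.30978 had 9.95, 241 and 207 FPKM in the thermal libraries, 43.5, 0.717 and 184 FPKM in the hypoxic libraries, 228, 713 and 20.3 FPKM under both stresses, and 33.2, 100 and 299 FPKM in the control libraries. AJAP12865 had 186, 5.28 and 13.6 FPKM in the thermal libraries, 99.2, 1.86 and 41.2 FPKM in the hypoxic libraries, 55.3, 60.4 and 6.81 FPKM under both stresses, and 122, 31.2 and 0.85 FPKM in the control libraries. In both features every treatment overlapped every other one, and a single library was far below the rest of its treatment in the hypoxic group. AJAP12865 was also low in control library 3.

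AJAP21893 had 14.1, 100 and 301 FPKM in the thermal libraries, 1.44, 6.15 and 17.6 FPKM in the hypoxic libraries, 3.73, 1.04 and 188 FPKM under both stresses, and 2.67, 125 and 17.7 FPKM in the control libraries. Its high values thus came from thermal libraries 2 and 3 and from a single library each under both stresses and in control. AJAP20191 had 37.5, 44.7 and 252 FPKM in the thermal libraries, 1.31, 117 and 130 FPKM in the hypoxic libraries, 0.5, 63.7 and 16.2 FPKM under both stresses, and 178, 20.7 and 109 FPKM in the control libraries. Here the first hypoxic library and the first library under both stresses were far below the rest, and the other 10 were at 16.2 FPKM or above.

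MSTRG.1894 ran from 27.1 to 90.7 FPKM in the thermal libraries, from 10.1 to 138 FPKM in the hypoxic libraries, from 0.504 to 97.5 FPKM under both stresses and from 1.49 to 110 FPKM in the control libraries. AJAP18998 ran from 2.17 to 31.8, from 1.65 to 68.3, from 3.53 to 49.1 and from 1.08 to 86.4 FPKM in thermal, hypoxic, doubly stressed and control libraries. Neither had a treatment that stood clear of another.

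MSTRG.21593 was highest in thermal library 3, at 128 FPKM, and in control library 3, at 67.0 FPKM, and had at most 21.5 FPKM in the other 10 libraries. MSTRG.114026, the longest member at 8032 bases, had 156 FPKM in the first library under both stresses and 45.5 FPKM in thermal library 2, against at most 10.1 FPKM in the other 10. The replicates beside that first library under both stresses had 0.678 and 0.927 FPKM. So in both features a pair of libraries from different treatments held the high values.

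**Figure D2:**
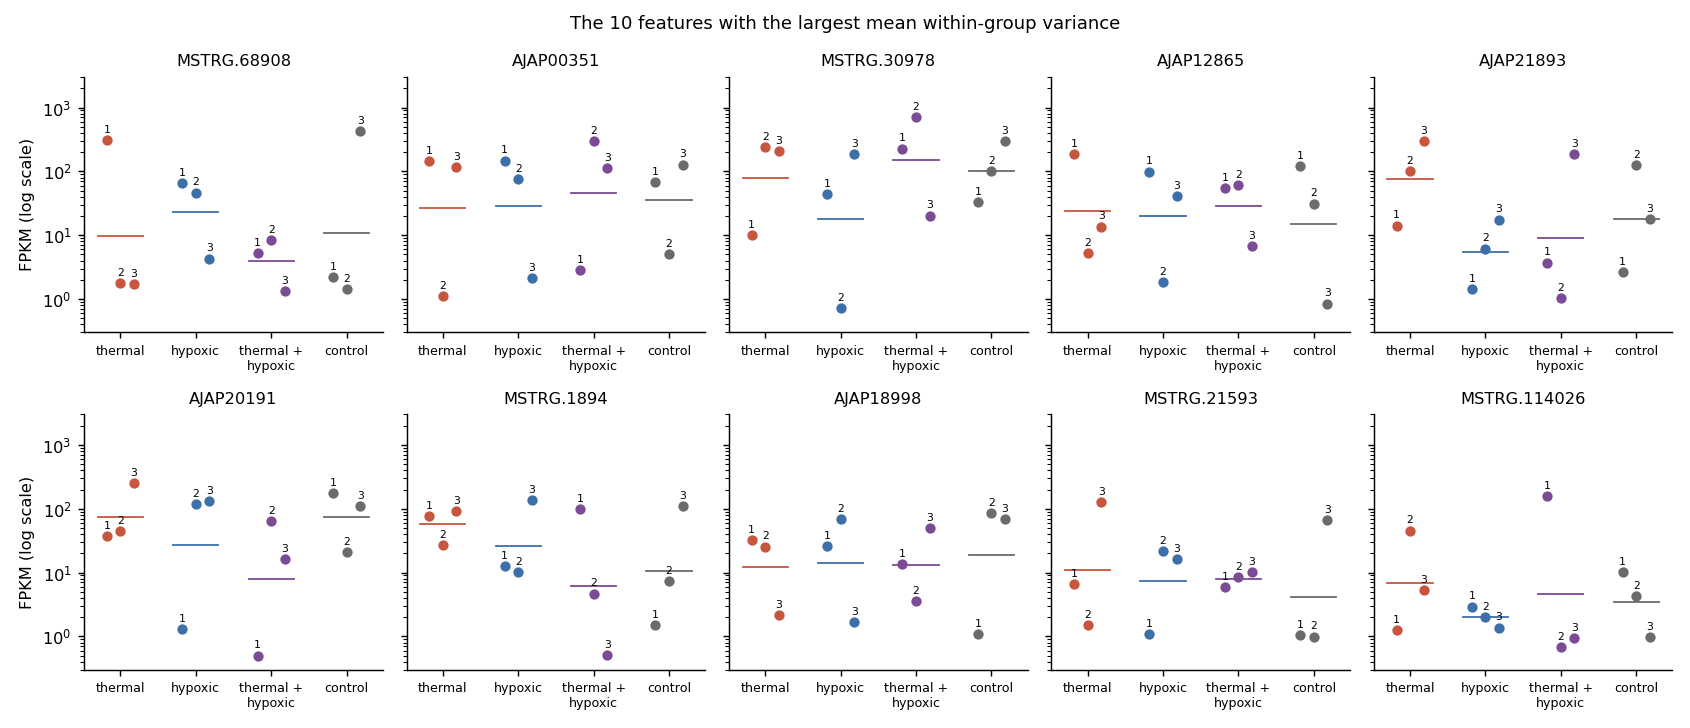
FPKM (log scale) of the 10 features with the largest mean within-group variance in the 12 libraries, by treatment. Each point is labelled by its replicate number, and a line marks the mean taken on the log2 scale of FPKM, with nothing added. Replicates of at least 1 treatment lie far apart in every panel, as in MSTRG.68908 with 309, 1.79 and 1.73 FPKM in the thermal libraries, and the treatments overlap.

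The members with the highest mean levels were no exception. AJAP12375 had 242, 196 and 476 FPKM in the thermal libraries, 86.2, 1.28 and 235 FPKM in the hypoxic libraries, 258, 246 and 58.7 FPKM under both stresses, and 1660, 177 and 408 FPKM in the control libraries. It was near 0 in hypoxic library 2 alone, on 16 reads, and well expressed in the other 11. AJAP11644 had 367, 19.3 and 146 FPKM in the thermal libraries, 558, 552 and 28.0 FPKM in the hypoxic libraries, 52.1, 158 and 352 FPKM under both stresses, and 23.6, 232 and 1630 FPKM in the control libraries. Its lowest value rested on 198 reads, and every treatment again overlapped the others. MSTRG.111740, the third of them, is described with the treatment comparisons.

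Counting error was small beside this spread. Reads could be recovered from the steps of the FPKM values. The lowest count behind any value of a member was 3 reads and the median was 304. Poisson counting alone would give a member a median SD of 0.115 on the log2 scale and at most 0.281, against the observed median of 1.81. The observed within-group variance was between 35 and 4150 times the counting variance with a median of 277, against a median of 46.9 for ranked features. Counting accounted for at most 2.86% of a member's within-group variance, a share that is low in part because large variance chose the members. These values say nothing of error from amplification, because single molecules were not tagged.

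All 4 treatments contributed to the spread, unequally for many members. A treatment was called wide for a feature when its highest library exceeded its lowest by at least 2 log2 units (4-fold). By that measure the thermal group was wide for 82 members, the hypoxic group for 77, the group under both stresses for 70 and the control group for 74. All 4 groups were wide for 30 members, 3 groups for 46, 2 groups for 21 and 1 group for 3, whereas 15.0% of ranked features had any wide group and 0.449% had 4. The median ratio of the highest to the lowest replicate was 15.7 in thermal, 7.85 in hypoxic, 6.38 under both stresses and 9.71 in control samples, against 1.54 to 1.59 for ranked features. Within-group spread chose the members, so more wide groups and larger ratios among them follow from the choice. The thermal group held 29.9% of the members' summed within-group variance, the hypoxic group 21.5%, the doubly stressed group 21.7% and the control group 26.8%. The corresponding shares over ranked features were 26.1%, 22.5%, 25.2% and 26.2%. For single members the spread was often less even: 49 of the 100 had most of their within-group variance in 1 treatment, which was thermal for 18, hypoxic for 5, both stresses for 8 and control for 18. This was not counted over all ranked features, so it may not be particular to the members.

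More often than not the odd library was the low one. Of the 303 wide groups, 128 had 1 library low, 70 had 1 library high, and 105 were graded. A library was counted as odd when its gap to the middle library was over 2 times the gap between the middle library and the remaining one. No limit was set on the distance between the other 2 libraries, which could itself be large. Hypoxic samples leaned most to a low library, with 37 low against 12 high, and control samples had 28 low against 17 high. Thermal samples had 32 low against 23 high, and samples under both stresses had 31 low against 18 high. These shapes were not counted over all ranked features, so the lean may not be particular to the members.

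The library farthest from its group mean was taken as a feature's leading library. It was low in 64 members and high in 36, and it held over 50% of the within-group sum of squares in 8 of them. Leading libraries were not counted over all ranked features. Every one of the 12 libraries led at least 3 members, so no single library carries the list. Thermal library 2 led most often, in 22 members (8 high, 14 low), followed by control library 3 in 14 (7 high, 7 low), the first library under both stresses in 12 (7 high, 5 low) and control library 1 in 11 (4 high, 7 low). Thermal library 2 also had the largest median distance from its group mean over the members, 1.64 log2 units, against 0.77 to 1.3 in the other 11 libraries. Over all ranked features its median distance was 0.24, inside the range of 0.2 to 0.25 over the libraries.

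**Figure D3:**
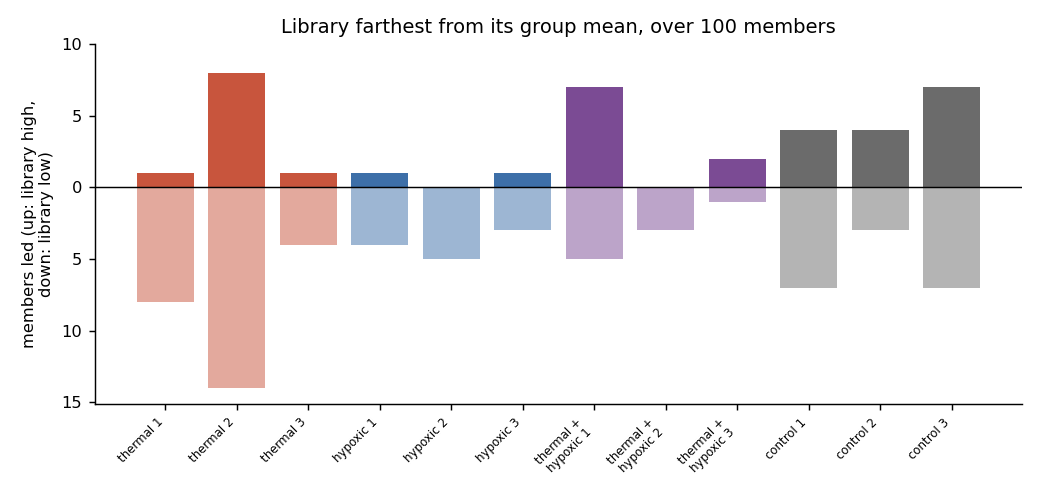
Number of the 100 features for which each library lay farthest from its group mean, counted upwards where that library was high and downwards where it was low. Thermal library 2 led in 22 features, 14 of them as the low library, and each of the other 11 libraries led in 3 to 14.

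Single members show how far a leading library stood from its replicates. In thermal library 1, MSTRG.61412 had 2.09 FPKM, against 90.1 and 166 FPKM in its replicates. Thermal library 3 had 1.43 FPKM of AJAP15308, against 75.1 and 66.1 FPKM. Hypoxic library 3 had 0.702 FPKM of AJAP05343, against 11.3 and 36.9 FPKM in the other hypoxic libraries. All 3 were low in the leading library.

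Under both stresses, library 2 had 0.795 FPKM of AJAP01371, against 33.2 and 20.2 FPKM in its replicates. Control library 2 had 216 FPKM of AJAP28561, against 2.28 and 8.62 FPKM in the other control libraries. Control library 1 had 1.03 FPKM of AJAP22408, against 217 and 130 FPKM. Of these, the AJAP28561 case was a high library and the other cases low ones.

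In 32 members the 12 sorted values held an empty stretch of at least 2 log2 units, whatever the treatment. This held for 1.2% of ranked features. Large spread chose the members, so more such stretches among them follow from the choice. Values on 1 side of a stretch could still range widely, as in AJAP12375 with 58.7 to 1660 FPKM above it. Of the 32, 13 had 11 libraries above the stretch and 1 below it, 6 had 10 above, 8 had between 4 and 9 above, and 5 had 1 or 2 above. The requirement of 0.5 FPKM in every library bears on this form, since a feature listed at 0 in any library could not be ranked. The cases named in the next 2 paragraphs were chosen after their values were seen.

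Each of 3 libraries was the single low one for 3 members: thermal library 1 (AJAP28846, AJAP27481 and AJAP15128), hypoxic library 2 (AJAP12375, MSTRG.55773 and MSTRG.30978) and the first library under both stresses. In the first library under both stresses MSTRG.50867 had 0.835 FPKM, AJAP03453 had 1.0 FPKM and AJAP19380 had 5.2 FPKM. In the other 11 libraries MSTRG.50867 had 31.9 to 265 FPKM, AJAP03453 had 30.9 to 120 FPKM and AJAP19380 had 87.9 to 444 FPKM. The deepest empty stretch, however, belonged to AJAP12375 with its single low hypoxic library, whose 1.28 FPKM stood against 58.7 FPKM or more elsewhere. AJAP22408 and MSTRG.111740 were both low in control library 1 alone, at 1.03 and 3.05 FPKM, against at least 20.2 and 26.9 FPKM in the other 11.

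Pairs of libraries from different treatments also shared a level. MSTRG.57769 had 1.02 FPKM in the third library under both stresses and 0.664 FPKM in control library 3, against 16.7 to 44.8 FPKM in the other 10. MSTRG.72554 was low in the same 2 libraries, at 3.5 FPKM under both stresses and 1.89 FPKM in control, against 16.1 to 73.5 FPKM. AJAP11676 was high in 2 libraries only, with 102 FPKM in thermal library 2 and 99.8 FPKM in the first library under both stresses, against 1.14 to 7.3 FPKM in the other 10. The same 2 libraries held the highest values of MSTRG.114026. AJAP03666 was high in control library 3 alone, at 103 FPKM, against 0.5 to 10.5 FPKM elsewhere.

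The ranking was repeated on 3 treatments, and the spread in the remaining one was then measured, as a description. The minimum of 0.5 FPKM and the mean of 10 FPKM were still taken over all 12 libraries. The treatment left out of the ranking thus took part in the filter. The 100 features ranked without the thermal group had a median SD of 1.13 (quartiles 0.76 and 1.92) between the thermal replicates, against 0.34 (quartiles 0.2 and 0.55) for ranked features. Without the hypoxic group the median in hypoxic samples was 1.22, against 0.33. Without the doubly stressed group it was 1.07 in that group, against 0.34, and without the control group it was 1.06 in control samples, against 0.35. In the treatment left out, 72 of the 100 thermal, 68 hypoxic, 57 doubly stressed and 62 control features lay in the top 10% of ranked features by SD. Above the median lay 92, 91, 87 and 91 of them. The median SD in the treatment left out was thus between 3.01 and 3.72 times the median of ranked features. In single treatments the 100 members had median SDs of 2.09 (thermal), 1.57 (hypoxic), 1.4 (both stresses) and 1.73 (control). Those SDs chose the members.

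**Figure D4:**
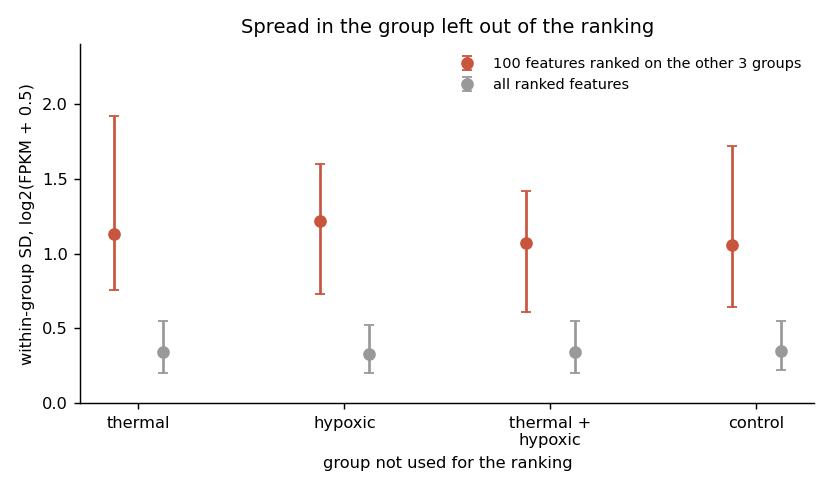
Median SD between the 3 replicates of the treatment left out of the ranking (points) with its quartiles (bars), for the 100 features ranked on the other 3 treatments (red) and for all ranked features (grey). The red medians lie between 1.06 and 1.22 and the grey medians between 0.33 and 0.35.

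Some members varied together. The deviations of 2 members from their group means over the 12 libraries were compared by Pearson's r, which leaves 8 free values, so that r is a description. All pairs share the same 12 libraries. Of 4950 pairs, 14 (0.283%) reached an r of 0.9, against 0.0807% of the 59617740 pairs of ranked features, and the median r was -0.01. The size of these deviations chose the members, and its part in the share of such pairs was not tested. At an r of -0.9 or below there were 7 pairs. The pairs at 0.9 or above formed 10 sets holding 22 of the 100 members. The other members had no such partner within the list, but partners among the other ranked features were not counted for them.

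The set with the highest r held AJAP12666, AJAP17384 and AJAP19273, with r between 0.961 and 0.989. AJAP12666 had 33.2, 183 and 7.68 FPKM in the thermal libraries, 229, 585 and 95.5 FPKM in the hypoxic libraries, 327, 170 and 182 FPKM under both stresses, and 15.0, 3.54 and 164 FPKM in the control libraries. AJAP17384 had 13.2, 109 and 5.01 FPKM in the thermal libraries, 116, 480 and 76.1 FPKM in the hypoxic libraries, 203, 92.7 and 129 FPKM under both stresses, and 8.64, 1.98 and 114 FPKM in the control libraries. AJAP19273 had 20.2, 92.1 and 2.41 FPKM in the thermal libraries, 146, 312 and 36.9 FPKM in the hypoxic libraries, 140, 71.4 and 85.4 FPKM under both stresses, and 6.78, 1.52 and 62.2 FPKM in the control libraries. In all 3, thermal library 2 and control library 3 were severalfold above their replicates and close to the libraries under both stresses. Hypoxic library 2 was the highest of the 12 in each. Their mean log2 differences from control were 3.43 to 3.62 under hypoxic stress and 3.29 to 3.32 under both stresses. None of these passed the limma test given below. The recovered lengths of the 3 differ, at 1068, 546 and 549 bases. Whether they are near-identical copies or pieces of 1 locus, between which reads can be split, was not tested. A further 5 ranked features outside the list followed AJAP12666 at an r of at least 0.9, AJAP09424 (r = 0.98) and AJAP04231 (r = 0.969) most closely, both named after their values were seen.

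The other set of 3 was AJAP05343, AJAP18998 and AJAP23018, with r between 0.906 and 0.954. AJAP05343 had 101, 82.7 and 19.9 FPKM in the thermal libraries, 11.3, 36.9 and 0.702 FPKM in the hypoxic libraries, 16.1, 40.4 and 96.5 FPKM under both stresses, and 1.41, 16.1 and 22.8 FPKM in the control libraries. AJAP23018 had 63.6, 22.1 and 7.27 FPKM in the thermal libraries, 4.64, 14.8 and 0.657 FPKM in the hypoxic libraries, 10.5, 13.8 and 53.3 FPKM under both stresses, and 1.62, 28.6 and 25.7 FPKM in the control libraries. Thermal library 3, hypoxic library 3 and control library 1 were the low ones of their treatments in both, as in AJAP18998. The remaining sets were pairs, of which AJAP03036 with AJAP06892, named after their values were seen, had the highest r (0.965). Another paired MSTRG.111740 with AJAP22408 (r = 0.918), the features low in control library 1 alone. AJAP22408 had 273, 148 and 173 FPKM in the thermal libraries, 84.3, 20.2 and 191 FPKM in the hypoxic libraries, 430, 200 and 241 FPKM under both stresses, and 1.03, 217 and 130 FPKM in the control libraries.

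The treatments were compared with control in 1 limma model over 46763 features, all 100 members among them, with Benjamini-Hochberg adjustment over all of these and a threshold of 0.05. The spread that chose the members enters their standard errors, so fewer calls among them follow from the choice. Under thermal stress 0 of the 100 members passed, against 0.0171% of all features, and the smallest adjusted p of a member in limma was 0.271. Under hypoxic stress 0 passed, against 0.408% of all features, and the smallest was 0.0859. Under both stresses 1 passed, against 1.88% of all features. In the test for any difference among the 4 groups 0 passed, against 0.712%, with a smallest adjusted p in limma of 0.0787. At an unadjusted p under 0.05 stood 7 members under thermal stress (10.3% of all features), 9 under hypoxic stress (13.5%), 11 under both stresses (15.6%) and 12 in the test of any difference (15.8%). Limma's voom on the recovered reads called 0 members in each of these 4 tests, against 0%, 0.135%, 0.86% and 0.259% of all features. It put 7, 9, 11 and 8 members at an unadjusted p under 0.05, against 10.1%, 12.7%, 14.6% and 14.5% of all features.

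The spread that chose the members also moves the means of 3 libraries, so larger differences between means, and a smaller between-group share, follow from the choice and are given as a description. The median absolute log2 difference from control was 0.88 over the members against 0.42 over all features tested under thermal stress, 1.15 against 0.46 under hypoxic stress, and 0.93 against 0.48 under both. Between-group differences made up a median of 21.1% of a member's total sum of squares, from 0.751% to 70.9%, against a median of 41.8% for ranked features.

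AJAP20815 was the member that passed, and it rose under both stresses. It had 3.39, 227 and 1.06 FPKM in the thermal libraries, 42.9, 25.1 and 8.08 FPKM in the hypoxic libraries, 324, 253 and 232 FPKM under both stresses, and 2.68, 3.83 and 3.18 FPKM in the control libraries. The 3 libraries under both stresses were all far above the 3 control libraries and close to each other, at a mean of 270 ± 48.3 FPKM against 3.23 ± 0.579 FPKM in control (SD, n = 3 each). The log2 difference was 6.18 with a standard error of 1.33, and the adjusted p in limma was 0.0383. Its replicate spread came from the thermal group, where library 2 alone reached the level seen under both stresses. Hypoxic libraries also lay above control without overlap, at a log2 difference of 2.52, but missed the threshold with an adjusted p in limma of 0.444. The call under both stresses depended on single libraries: the adjusted p in limma was 0.00059 without thermal library 2, and reached up to 0.114 when hypoxic library 1 or 2, any 1 library under both stresses or any 1 control library was left out. It was also lost with no filter on low values (adjusted p in limma 0.0634) and with voom. Its log2 difference was between 6.04 and 6.29 with any 1 library left out.

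AJAP24856 came nearest under hypoxic stress. It had 2.49, 14.0 and 0.843 FPKM in the thermal libraries, 228, 99.9 and 43.4 FPKM in the hypoxic libraries, 5.87, 133 and 96.7 FPKM under both stresses, and 2.79, 3.17 and 5.45 FPKM in the control libraries. The hypoxic and control libraries did not overlap, and under both stresses library 1 lay near the control level while the other 2 lay with the hypoxic libraries. The log2 difference between hypoxic and control samples was 4.59 with a standard error of 1.08 and an adjusted p in limma of 0.0859, which was 0.0388 without the first library under both stresses. It also had the smallest adjusted p among members in the test of any difference, which passed without the first library under both stresses (0.0327) or without thermal library 2 (0.0489). Without thermal library 2, AJAP20815 passed that test as well (adjusted p in limma 0.00134).

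MSTRG.111740, the member with the highest mean level, came nearest under thermal stress. It had 355, 1140 and 375 FPKM in the thermal libraries, 56.3, 26.9 and 100 FPKM in the hypoxic libraries, 656, 481 and 698 FPKM under both stresses, and 3.05, 155 and 85.9 FPKM in the control libraries. All thermal libraries and all libraries under both stresses lay above all hypoxic and control libraries. The log2 difference from control was 3.88 under thermal stress (standard error 1.07, adjusted p in limma 0.271) and 4.06 under both stresses (adjusted p in limma 0.0774). Control library 1 lay below every other library. Without it the log2 difference under thermal stress was 2.2, against 4.93 without control library 2, and the test of any difference had an adjusted p in limma of 0.0408.

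**Figure D5:**
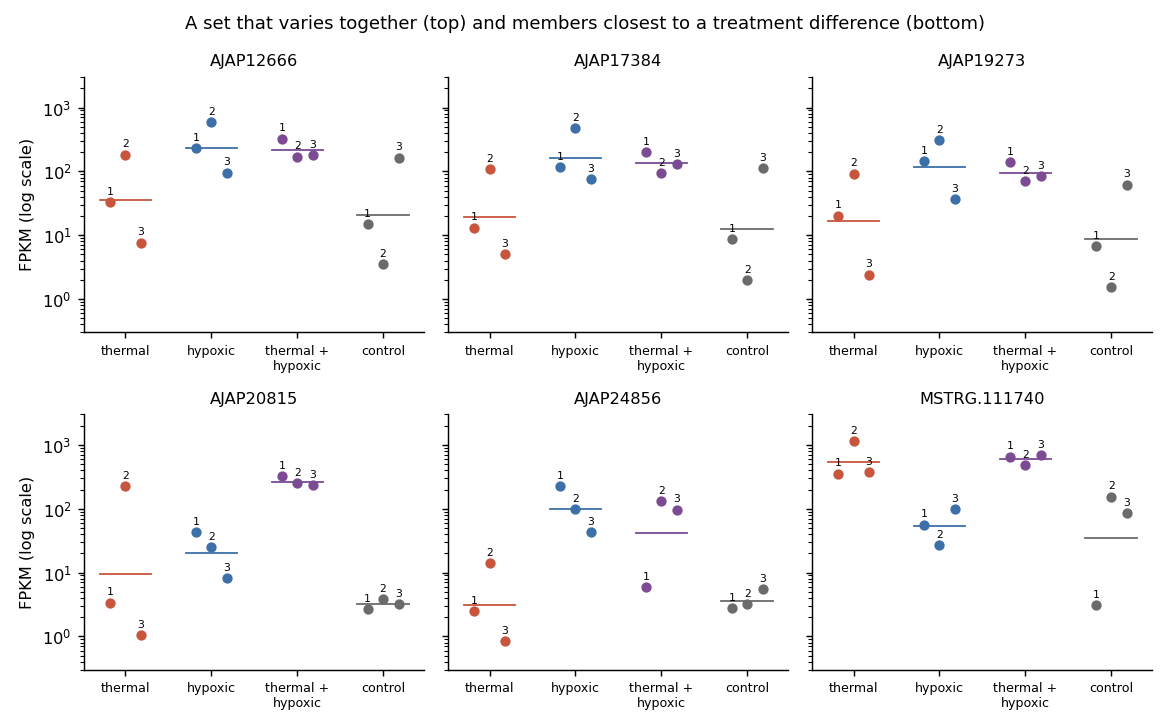
FPKM (log scale) in the 12 libraries by treatment, for the set AJAP12666, AJAP17384 and AJAP19273 (top) and for AJAP20815, AJAP24856 and MSTRG.111740 (bottom). Points carry replicate numbers, and a line marks the mean taken on the log2 scale of FPKM, with nothing added. The top panels show 1 pattern 3 times, with thermal library 2 and control library 3 above their own replicates and hypoxic library 2 highest of the 12. AJAP20815 reaches 232 to 324 FPKM under both stresses against 2.68 to 3.83 FPKM in control.

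Non-overlap of 3 libraries with 3 others also depends on the spread that chose the members, so fewer such cases follow from the choice, and nothing is read from the counts. Under thermal stress 3 members had all libraries above all control libraries and 1 had all below, against 8.42% and 6.45% of all features. Under hypoxic stress 8 were above and 4 below, against 8.69% and 10.1%, and under both stresses 8 were above and 3 below, against 9.59% and 10.4%. Over ranked features the shares in both directions together were 19.0% under thermal stress, 27.8% under hypoxic stress and 28.6% under both. In all, 19 members were apart from control under at least 1 treatment, a count that was not made over all features or over ranked features. Those lower under both stresses were AJAP11720, AJAP15308 and AJAP22048, which were named after their values were seen. AJAP11720 had 0.662 to 1.24 FPKM under both stresses and 3.53 to 78.3 FPKM in control, AJAP15308 had 0.989 to 2.69 and 14.9 to 44.8 FPKM, and AJAP22048 had 1.29 to 47.0 and 74.8 to 145 FPKM. Their adjusted p in limma was 0.164, 0.136 and 0.0924. It was 0.0331 for AJAP15308 without thermal library 3 and 0.0307 for AJAP22048 without the first library under both stresses.

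Whether the effect of both stresses departed from the sum of the separate effects was tested in the same model, taking the groups to cross temperature with oxygen. No member passed (0 of 100, against 0% of all features), and the count at an unadjusted p under 0.05 was 3 (7.67% of all features). With voom 0 members passed, against 0% of all features, and 1 stood at an unadjusted p under 0.05 (7.22% of all features). In the main fit the smallest adjusted p of a member in limma was 0.602, at AJAP24480. It had 75.8, 3.31 and 75 FPKM in the thermal libraries, 15.7, 2.12 and 3.77 FPKM in the hypoxic libraries, 1.24, 1.11 and 7.06 FPKM under both stresses, and 5.7, 1.37 and 3.3 FPKM in the control libraries. Thermal libraries 1 and 3 were the high ones and thermal library 2 overlapped control. The interaction was -4.02 on the log2 scale with a standard error of 1.53.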

How the data were processed

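RNA was extracted with phenol and chloroform and ribosomal RNA removed with a kit made for human, mouse and rat, and libraries kept strand, per the labels' protocols. The authors deposited 1 table of FPKM values with a column per library, and 0 columns could not be matched to a title. The tools named in the submitters' processing notes were TopHat2 2.0.12, Bowtie2 2.2.3, DESeq 1.16 and Cufflinks. What each did, the build, the annotation and the use of strand in counting are not given in any source used here, so reads of antisense partners or near-identical copies may be shared between features.

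Groups came from the treatment labels. The members and lists were chosen with earlier results of these data known. A deposited FPKM value moves in steps of 1 read, set by length and library total. Totals, lengths and reads were recovered from these steps, whole within 0.001 reads for all 59494 features (100%), between 20384461 and 28424598 reads per library. Counting errors from them cover counting only, as reads without molecular tags are not independent molecules.

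The test took the 46763 features that reached 0.5 FPKM in 3 or more libraries, and worked on log2(FPKM + 0.5), a scale that understates the change of low values, with limma 3.58.1 (R 4.3.3): 4 group means, a variance trend and Benjamini-Hochberg adjustment over all features tested. The read recovery and the test were tried on simulated data. Alternatives were pseudocounts of 0.1 and 1, other filters, median-of-ratios scaling, a replicate block, voom on recovered reads, leaving out each library and, added after seeing the data, a fit on only the groups compared. The ranking and figures used Python 3.11.15, numpy 2.4.6, pandas 2.3.3, scipy 1.17.1 and matplotlib 3.10.9.

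Features were named by rule: the 10 with the largest variance, the 3 on either side of rank 100, the 3 with the highest mean, the member with the largest deviation in each leading library, up to 3 from each of the 3 largest sets that varied together, and per comparison the members called or, with none called, the one with the smallest adjusted p. Names outside this rule are marked in the text.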

Additional observations from a re-analysis of the deposited data

How the results depend on the processing

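The list depended most on its minimum per library. With no minimum, 15 of the 100 members stayed and 66 of the new top 100 had a library listed at 0, and with 2 FPKM required in all libraries 19 stayed. Other settings (pseudocount, mean level, scaling, subtracting counting variance, median of variances, leaving out a treatment) shared 67 to 99 members, and leaving out 1 library shared 71 to 84. The pairs varying together numbered 57 at an r of 0.8, against 14 at 0.9.

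Of the members called under both stresses, 1 in the main analysis, 0 were called with no filter on low values and 0 with voom, and 2 with a fit on only the 2 groups compared (AJAP20815 and AJAP15308, adjusted p in limma 0.000478 and 0.0336). Leaving out 1 library gave 0 to 2 members under both stresses, against 0.295% to 2.13% of all features. It gave 0 to 1 under hypoxic stress (AJAP24856), against 0% to 0.518%, and 0 to 2 in the test of any difference, against 0.137% to 1.05%. Under thermal stress and for the interaction it gave 0 to 0, against at most 0.0128% and 0.00428% of all features. The call of AJAP20815 was lost without hypoxic library 1 or 2, without any 1 library under both stresses, and without any 1 control library, while AJAP15308 passed without thermal library 3 (adjusted p in limma 0.0331), AJAP22048 and AJAP24856 without the first library under both stresses (0.0307 and 0.0359), and AJAP03255, named for this result, without control library 1 (0.0457). The cause was not tested. The 4 differences recomputed under the alternatives (MSTRG.111740 under thermal stress, AJAP24856 under hypoxic stress, AJAP20815 under both and the interaction of AJAP24480) kept their direction wherever they were run.

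Whether libraries with the same replicate number were handled together is not known from the labels, and correlations cannot settle it. Over all tested features the deviations of the 18 same-numbered pairs correlated between -0.08 and 0.09, against -0.06 to 0.08 for other pairs. With a replicate block the count under both stresses was again 1 member (1.28% of all features, 600 against 881 without it). In the other tests 0 members passed, against at most 0.192% of all features. The lists shared 80 members when replicate means were removed first. Counting error was at most 2.86% of a member's within-group variance, a share that is low in part because large variance chose the members. The part of depth in the results was not tested otherwise.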
